A study of Mus musculus with 12 samples.

Results

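Brush border hydrolases are the digestive enzymes anchored in the apical membrane of small intestinal enterocytes. The 10 described here were taken by gene symbol from a table of 55421 mouse gene identifiers: the sugar-splitting enzymes Lct, Sis, Mgam and Treh, the peptidases Anpep, Enpep, Dpp4, Mep1a and Mep1b, and the alkaline phosphatase Alpi. All 10 symbols were found once, and all 10 passed the filter on low counts, as did 17394 genes in all. The table came from bulk RNA sequencing of mouse small intestinal tissue, and its 12 libraries fell into 3 groups of 4 that differed in Eif3h and Apc. The Apc Eif3h group carried the VilCreER transgene with both genes floxed, Apc fl/fl and Eif3h fl/fl (4 males, labelled day 4). The Apc group carried VilCreER Apcfl/fl (3 males and 1 female, labelled day 4). The WT group was labelled wild type (3 males and 1 female, labelled day 7). VilCreER is a Cre recombinase that tamoxifen switches on and the villin promoter drives in gut epithelial cells, so immune, muscle and connective tissue cells of the same sample keep their floxed alleles. For all samples, WT included, the protocol gives 2 tamoxifen injections of 80 mg/kg, 24 hours apart, and a harvest after 7 days, which differs from the day 4 that both floxed groups are labelled with. By the labels, genotype and day cannot be told apart in either comparison with WT, whereas Apc Eif3h and Apc share a day. The labels do not say whether the libraries of a group are separate animals, and p-values thus rest on the spread among these libraries alone. Age and strain were not used here.

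The brush border is the carpet of microvilli on the luminal face of the enterocyte, and its hydrolases finish digestion at the membrane across which the products are taken up. Sucrase-isomaltase, maltase-glucoamylase, lactase and trehalase release single sugars, the amino- and dipeptidases and the meprins shorten peptides, and intestinal alkaline phosphatase removes phosphate from luminal substrates, bacterial lipopolysaccharide among them. The transcripts are low in crypts and appear as cells leave the crypt and mature along the villus, and several of them also differ along the length of the bowel. The Apc protein holds together the machinery that destroys beta-catenin, and losing it in the gut epithelium switches on Wnt targets and expands crypt progenitor-like cells. The Eif3h protein is part of eIF3, the large factor that helps ribosomes start translation.

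Sequences upstream of the transcription starts were read from RefSeq (GRCm38.p6), which held 9 of the 10 genes, Mep1b being the other. Shown are the stretches directly before the start of Sis and Lct, which held several matches to letters known from sites of intestinal transcription factors, of Alpi and Mep1a, which both hold HNF4-type letters, and of Anpep, which held none. Capitals mark TTTAT or ATAAA (CDX-type letters), GATAA or TTATC (GATA-type) and CAAAGT or ACTTTG (HNF4-type), the second of each pair being the first read on the other strand. Each line runs 5′ to 3′ on the strand of the gene and ends at the base before the RefSeq start.
Sis: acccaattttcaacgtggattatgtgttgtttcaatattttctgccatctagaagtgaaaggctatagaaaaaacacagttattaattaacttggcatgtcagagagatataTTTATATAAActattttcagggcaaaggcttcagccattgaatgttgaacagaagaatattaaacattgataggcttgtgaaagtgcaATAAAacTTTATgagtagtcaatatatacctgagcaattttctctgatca
Lct: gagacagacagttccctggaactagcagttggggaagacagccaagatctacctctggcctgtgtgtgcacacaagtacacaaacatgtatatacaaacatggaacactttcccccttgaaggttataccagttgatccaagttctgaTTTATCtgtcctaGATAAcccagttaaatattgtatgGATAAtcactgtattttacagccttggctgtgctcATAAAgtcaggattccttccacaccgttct
Alpi: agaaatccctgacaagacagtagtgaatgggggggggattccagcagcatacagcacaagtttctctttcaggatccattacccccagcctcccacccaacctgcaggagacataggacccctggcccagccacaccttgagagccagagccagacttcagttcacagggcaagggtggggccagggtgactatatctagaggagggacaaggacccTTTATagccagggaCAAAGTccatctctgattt
Mep1a: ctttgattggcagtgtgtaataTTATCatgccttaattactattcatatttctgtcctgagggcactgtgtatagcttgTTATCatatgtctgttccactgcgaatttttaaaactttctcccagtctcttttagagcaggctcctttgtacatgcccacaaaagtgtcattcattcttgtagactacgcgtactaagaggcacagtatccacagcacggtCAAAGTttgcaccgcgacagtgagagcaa
Anpep: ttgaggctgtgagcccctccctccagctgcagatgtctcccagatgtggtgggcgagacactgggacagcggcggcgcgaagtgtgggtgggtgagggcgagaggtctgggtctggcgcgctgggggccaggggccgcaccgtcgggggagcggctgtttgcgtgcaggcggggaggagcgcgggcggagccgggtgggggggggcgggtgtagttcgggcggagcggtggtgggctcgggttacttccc

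The Sis stretch lies at chr3:72967864-72968113, the Lct stretch at chr1:128328319-128328568, the Alpi stretch at chr1:87101607-87101856, the Mep1a stretch at chr17:43502774-43503023 and the Anpep stretch at chr7:79848211-79848460, all upstream of genes on the minus strand. In the Lct stretch the TTTAT at position -102 overlaps the TTATC at -101. In the Sis stretch the ATAAA stands at -50 and the TTTAT at -43, and a further pair stands at -133 and -138. CDX-type letters stood in 6 of the 9 stretches and in 37.3% of 32851 RefSeq mouse promoters of the same length. GATA-type letters stood in 5 of 9 against 22.6% of promoters, and HNF4-type letters in 3 of 9 against 12.6%. The same letters as ATAAA can also be part of a TATA box. These are matches of letters in a short window and say nothing of binding.

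By GENCODE M21 on GRCm38, the sugar-splitting enzymes lie at chr1:128284756-128328318 on the minus strand (Lct), chr3:72888557-72967863 on the minus strand (Sis), chr6:40628831-40769123 on the plus strand (Mgam) and chr9:44673233-44686305 on the plus strand (Treh). The peptidases lie at chr7:79821803-79861059 (Anpep), chr3:129269175-129332720 (Enpep), chr2:62330073-62412231 (Dpp4) and chr17:43474324-43502812 (Mep1a), all on the minus strand, and at chr18:21061923-21100199 on the plus strand (Mep1b). Alpi lies at chr1:87098002-87101606 on the minus strand. The RefSeq starts of Anpep and Mep1a fall inside these bounds, so their upstream stretches do too, wholly for Anpep and in part for Mep1a. Which start was used in this tissue was not tested, so the lack of matches for Anpep holds for the RefSeq start alone. Counts were summed over whole genes, so no exon or isoform is told apart.

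Library totals were 14221414 to 21298301 counts in Apc Eif3h, 10483112 to 18621953 in Apc and 13915889 to 14589963 in WT. Eif3h, the deleted gene, stood at 28.3, 43.1, 54.6 and 25.9 CPM (counts scaled to library size with TMM factors) in Apc Eif3h, at 158 to 175 CPM in Apc and at 126 to 142 CPM in WT. Summed counts of Apc, which cover exons outside the floxed part and so do not check the deletion, averaged 105 CPM in Apc Eif3h, 114 CPM in Apc and 94.2 CPM in WT (n = 4 each). Epithelial markers were present in every library, with summed levels of 5771 to 7817 CPM in Apc Eif3h, 6154 to 7053 CPM in Apc and 5974 to 8497 CPM in WT. Markers of pancreatic acinar cells, which secrete luminal enzymes, summed to at most 0.371 CPM in any library. Apc Eif3h replicate 2 stood apart in B cell genes, with Cd79a at 83.8 CPM and Ighm at 462 CPM, against 1.68 to 1.87 CPM and 8.56 to 10.7 CPM in the other Apc Eif3h libraries, and 3.83 to 13.2 CPM and 17.5 to 131 CPM in WT. Libraries also differed in genes that mark position along the small intestine, as described for the members further on.

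The 10 hydrolases together took 1.06% ± 0.143 of all counts in Apc Eif3h, 0.962% ± 0.160 in Apc and 1.65% ± 0.0932 in WT (SD, n = 4 each). The shares were 0.895% to 1.23% in Apc Eif3h, 0.802% to 1.12% in Apc and 1.52% to 1.74% in WT, so that both floxed groups lay wholly below WT and overlapped each other. In WT, per kilobase of exon, Anpep was the highest at 1002 ± 182 CPM per kb and Mep1a the lowest at 41.4 ± 11.3 CPM per kb (SD, n = 4). Between them in WT came Alpi at 532 ± 65.9, Sis at 532 ± 43.4, Mep1b at 462 ± 80.1, Lct at 391 ± 49.2, Mgam at 335 ± 48.3, Treh at 283 ± 21.7, Enpep at 195 ± 28.5 and Dpp4 at 108 ± 19.0 CPM per kb. Neighbours from Alpi down to Treh in that order had overlapping WT libraries. Anpep, Enpep, Dpp4 and Mep1a were each separated in WT from the neighbours on either side. Anpep was also the highest per kilobase in Apc Eif3h (464 ± 277) and in Apc (400.1 ± 183), and Mep1a the lowest (37.1 ± 23.8 in Apc Eif3h and 30.6 ± 9.83 in Apc), again in CPM per kb. Spread between libraries, as the coefficient of variation of CPM, ran from 17.8% (Dpp4) to 64.3% (Mep1a) in Apc Eif3h, from 8.12% (Mgam) to 48.0% (Alpi) in Apc and from 7.67% (Treh) to 27.3% (Mep1a) in WT.

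**Figure D1:**
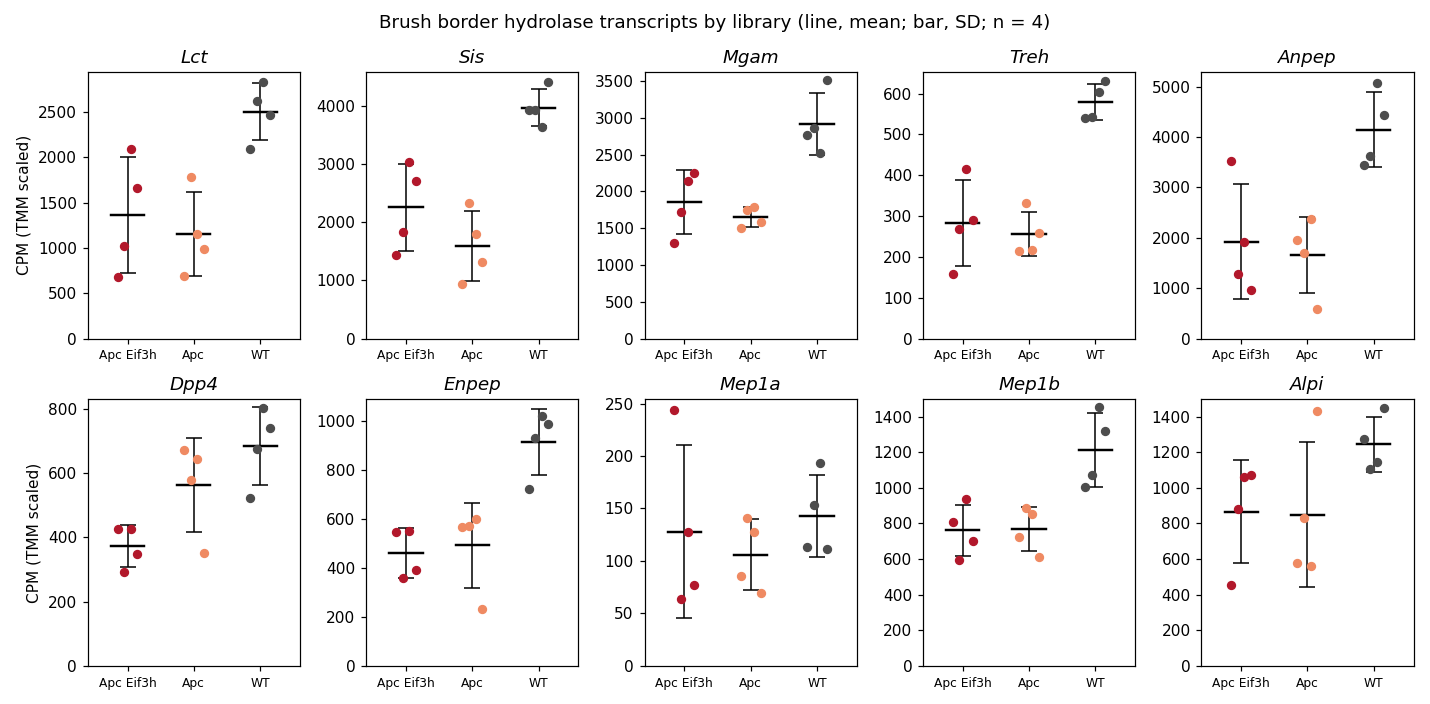
Level of each hydrolase transcript in CPM after TMM scaling (vertical axis, from 0) in the 4 libraries of Apc Eif3h, Apc and WT (points), with the group mean (line) and SD (bar). The WT points lie above both other groups for Sis, Mgam, Treh, Enpep and Mep1b, while Mep1a overlaps across all 3 groups.

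The first comparison set Apc against WT. Apc libraries held less of most hydrolases: 7 of the 10 were lower and 0 were higher at an adjusted p below 0.05 in edgeR's quasi-likelihood test, against 24.1% of all 17394 genes called lower and 27.7% called higher (51.8% in either direction). The split of all genes depended on scaling, with 13.8% lower and 39.2% higher when library totals alone were used, where 7 members were again lower. The 7 were Lct, Sis, Mgam, Treh, Anpep, Enpep and Mep1b, and Dpp4, Mep1a and Alpi were not called. All 10 log2 fold changes were below 0, with a median of -0.86, against -0.01 for all genes tested and -0.22 for genes at least as abundant as the lowest member. In 7 members the Apc and WT libraries did not overlap, as was so for 48.8% of all genes. In whole tissue, fewer enterocytes and less RNA per enterocyte cannot be told apart.

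The sugar-splitting enzymes fell together in Apc. Sucrase-isomaltase (Sis), which splits sucrose and starch fragments, stood at 1444, 1828, 3029 and 2709 CPM in Apc Eif3h, at 939, 2325, 1804 and 1312 CPM in Apc and at 3925, 3921, 3628 and 4409.6 CPM in WT. Every WT library was above every library of the other groups, and Sis was 2.49-fold lower in Apc than in WT (log2 fold change -1.32, SE 0.30, adjusted p = 0.00285). Lactase (Lct), which splits milk sugar, stood at 676, 1020.0, 2094 and 1668 CPM in Apc Eif3h, at 690.4, 1780.3, 1157 and 985 CPM in Apc and at 2091, 2628, 2838 and 2474 CPM in WT. The Apc libraries were all below WT, with Apc replicate 2 nearest, and 1 Apc Eif3h library (replicate 3) reached just above the lowest WT library. Lct was 2.17-fold lower in Apc than in WT (log2 fold change -1.12, SE 0.34, adjusted p = 0.0155).

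Trehalase (Treh), which splits the fungal and insect sugar trehalose, stood at 159, 269, 415 and 291 CPM in Apc Eif3h, at 215, 331, 218 and 259 CPM in Apc and at 540.1, 543, 603 and 629.7 CPM in WT. The WT libraries lay close together and above all others, and Treh was 2.26-fold lower in Apc than in WT (log2 fold change -1.18, SE 0.23, adjusted p = 0.00123), the smallest adjusted p of the 10. Maltase-glucoamylase (Mgam), which releases glucose from starch fragments, stood at 1302, 1720.2, 2143 and 2251 CPM in Apc Eif3h, at 1497, 1746, 1782 and 1587 CPM in Apc and at 2769.7, 2864, 2527 and 3513 CPM in WT. Mgam was again separate in WT, and its log2 fold change in Apc against WT was -0.82 (SE 0.19, adjusted p = 0.00359). The Mgam change was smaller in size than those of Sis, Lct and Treh, a difference that was not tested.

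Of the 5 peptidases, Anpep, Enpep and Mep1b fell in Apc, and Anpep had the largest change. Aminopeptidase N (Anpep), which trims neutral amino acids from the start of peptides, stood at 3529.8, 1275, 1911 and 961 CPM in Apc Eif3h, at 1949, 1704, 2370.4 and 594 CPM in Apc and at 3451, 3622, 5067 and 4438 CPM in WT. Apc replicate 4 and Apc Eif3h replicate 4 were the lowest, and Apc Eif3h replicate 1 fell within the WT range. Anpep was 2.51-fold lower in Apc than in WT (log2 fold change -1.32, SE 0.44, adjusted p = 0.0227). Without WT replicate 3 its adjusted p was 0.0521. Aminopeptidase A (Enpep), which removes acidic residues, stood at 549, 359, 550.5 and 392 CPM in Apc Eif3h, at 566, 573, 602 and 234 CPM in Apc and at 723, 929.9, 1022 and 989 CPM in WT. WT was wholly above the other groups, Apc replicate 4 was far below its group, and the log2 fold change in Apc against WT was -0.89 (SE 0.26, adjusted p = 0.0123).

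The meprins are zinc endopeptidases built from alpha and beta chains. Meprin beta (Mep1b) stood at 808, 596, 934 and 703 CPM in Apc Eif3h, at 723, 884, 853 and 613 CPM in Apc and at 1007, 1069.7, 1455 and 1318 CPM in WT. No library of either floxed group reached the WT range, and the log2 fold change of Mep1b in Apc against WT was -0.66 (SE 0.18, adjusted p = 0.00753). Meprin alpha (Mep1a), the least abundant member, stood at 244, 63.5, 127 and 76.9 CPM in Apc Eif3h, at 85.6, 141, 128 and 69.2 CPM in Apc and at 113, 153, 194 and 111 CPM in WT. Its groups overlapped, with the highest and the lowest of all 12 libraries both in Apc Eif3h, and the log2 fold change in Apc against WT was -0.43 (95% interval -1.25 to 0.38, adjusted p = 0.35).

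Dpp4 and Alpi were the other members not called in Apc. Dipeptidyl peptidase 4 (Dpp4), which removes dipeptides that end in proline or alanine and also cleaves incretin hormones, stood at 428, 291, 427 and 348 CPM in Apc Eif3h, at 672, 580.0, 646 and 350.1 CPM in Apc and at 522, 676, 802 and 740.2 CPM in WT. In Apc 3 of the 4 libraries lay within the WT range, and the log2 fold change was -0.29 (95% interval -0.73 to 0.16, adjusted p = 0.257). Intestinal alkaline phosphatase (Alpi) stood at 454, 880.5, 1059 and 1072 CPM in Apc Eif3h, at 575, 829, 559.9 and 1431 CPM in Apc and at 1275, 1108, 1143 and 1448 CPM in WT. Apc replicate 4 alone reached the WT range. Across all 12 libraries the log2 fold change of Alpi in Apc against WT was -0.55 (SE 0.31, adjusted p = 0.157), and without Apc replicate 4 it was -0.93 (adjusted p = 0.0164), which made 8 members lower. Of 36-base windows of the Alpi transcripts 5.56% also occur in transcripts of other genes, most often the related phosphatase Akp3. By this measure alone, the counts of Alpi are the least certain of the 10. For the other members the share was 0 to 3.14%, the highest being that of Dpp4 with the antisense gene Gm13561.

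With libraries from males alone, 4 members were lower in Apc against WT. Of all genes 6732 were then called in either direction, against 9012 with all libraries. Lct (adjusted p = 0.0781), Anpep (adjusted p = 0.0703) and Mep1b (adjusted p = 0.0555) then lost their calls, with 3 libraries in each of these groups, with log2 fold changes of -0.95, -1.38 and -0.59. With sex as a term in the fit of all 12 libraries, 7 members were lower. For neither of these fits is the share of all genes called lower given here.

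**Figure D2:**
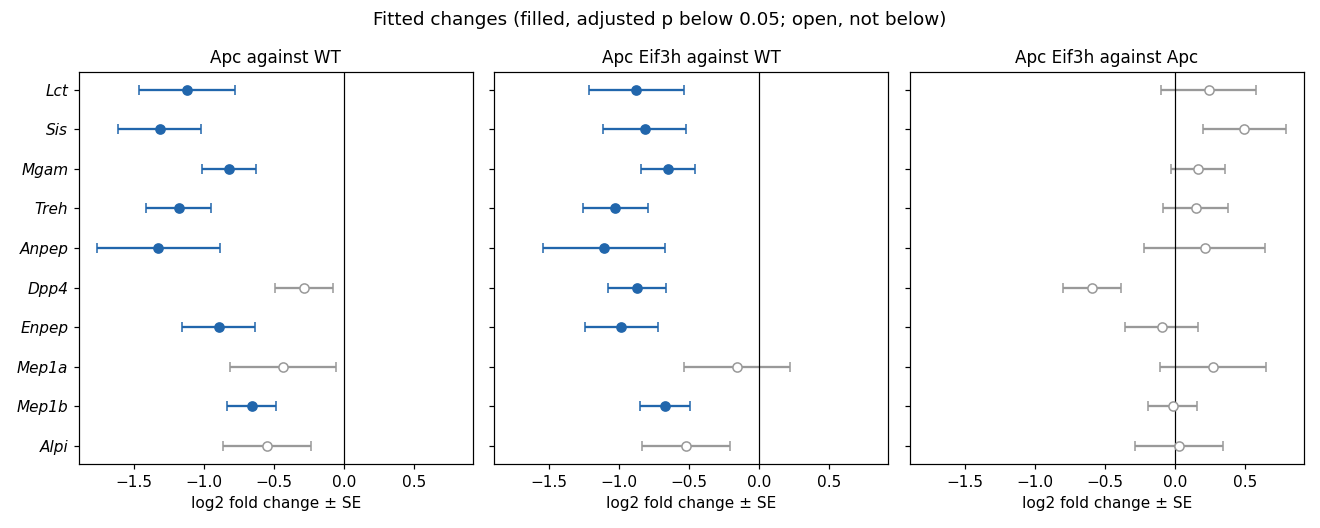
Log2 fold change (horizontal axis) with SE (bars) of each hydrolase in 3 panels (Apc against WT, Apc Eif3h against WT, Apc Eif3h against Apc), 4 libraries a group; filled points had an adjusted p below 0.05 in edgeR and open points did not. All points of the panels against WT lie left of 0, with 7 filled for Apc and 8 for Apc Eif3h, and no point is filled in Apc Eif3h against Apc.

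The second comparison, Apc Eif3h against Apc, asked what the loss of Eif3h added on the Apc-deficient background at the same labelled day. No hydrolase was called by edgeR: 0 of 10 were lower and 0 were higher, against 2.78% of all genes called lower and 4.27% called higher (7.05% in either direction), and DESeq2 also called 0. Of all genes 2.81% were lower and 2.79% higher with library totals alone, and 0.966% lower and 0.201% higher with pan-epithelial scaling, both with 0 members called. The smallest unadjusted p of the 10 members in edgeR was 0.0135, for Dpp4. In 0 members were the libraries of the groups separate, against 15.2% of all genes. The log2 fold changes were positive for 7 members and negative for 3, with a median of 0.16 against -0.00 for all genes.

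Dpp4 had the largest difference. It averaged 373 ± 66.4 CPM in Apc Eif3h and 562 ± 146 CPM in Apc (SD, n = 4 each), with a log2 fold change of -0.59 (95% interval -1.03 to -0.14, adjusted p = 0.103). All Apc Eif3h libraries lay below 3 of the Apc libraries, and only Apc replicate 4, at 350.1 CPM, fell among them. Without that library the log2 fold change of Dpp4 was -0.76 and its adjusted p was 0.031, so that 1 member was lower. It was not called in any of the other 21 alternatives, and its adjusted p over all 22 was 0.031 to 0.257.

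The sugar-splitting enzymes had positive log2 fold changes that did not pass the test. Sis averaged 2253 ± 741 CPM in Apc Eif3h and 1595 ± 602 CPM in Apc (SD, n = 4 each), a log2 fold change of 0.50 (95% interval -0.14 to 1.13, adjusted p = 0.329). For Lct the log2 fold change was 0.24 (95% interval -0.49 to 0.98), for Mgam 0.17 (-0.25 to 0.58) and for Treh 0.15 (-0.35 to 0.65). Mep1b, at -0.02, had the narrowest interval of the 10 (-0.39 to 0.36), and that of Enpep, at -0.09, ran from -0.65 to 0.47. The intervals of Anpep (-0.72 to 1.15), Mep1a (-0.54 to 1.09) and Alpi (-0.65 to 0.71) were wider than those of Mep1b and Enpep. Every interval other than that of Dpp4 allows a change of either sign.

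The third comparison set Apc Eif3h against WT, which differs from the first only in the floxed group and shares its WT libraries. In Apc Eif3h 8 of 10 hydrolases were lower and 0 higher, against 28.1% of all genes called lower and 29.8% called higher (57.8% in either direction). With library totals alone, 18.3% of all genes were lower (32.5% of those called), and 5 members were lower. The 8 were those lower in Apc together with Dpp4. All 10 log2 fold changes were below 0, with a median of -0.85 against -0.03 for all genes and -0.24 for genes at least as abundant as the lowest member. In 7 members the libraries of the groups were separate, against 47.7% of all genes.

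In Apc Eif3h, Treh had a log2 fold change of -1.03 against WT (SE 0.23, adjusted p = 0.00235), Enpep one of -0.99 (SE 0.26, adjusted p = 0.00626) and Dpp4 one of -0.88 (SE 0.21, adjusted p = 0.00309). Mep1b was at -0.67 (SE 0.18, adjusted p = 0.00578) and Mgam at -0.65 (SE 0.19, adjusted p = 0.0112). These 5 members kept their call in all 22 alternatives tried. The others were nearer the threshold: Anpep at -1.11 (adjusted p = 0.0437) kept its call in 10 of 22 alternatives, Lct at -0.88 (adjusted p = 0.0419) in 12 of 22 and Sis at -0.82 (adjusted p = 0.0305) in 17 of 22. The count of lower members was 5 without WT replicate 2, without WT replicate 4 or without Apc Eif3h replicate 2, the library with the B cell genes, as in the scaling by totals alone. Alpi (log2 fold change -0.52, 95% interval -1.20 to 0.16, adjusted p = 0.17) was not called although its highest Apc Eif3h library, at 1072 CPM, was below its lowest WT library, at 1108 CPM. Mep1a, at -0.16 (95% interval -0.97 to 0.66), was not called.

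Within groups, some libraries were high or low in nearly all members and others were split. The mean absolute difference between 2 members' log2 profiles, each centred on its mean over the 12 libraries, was smallest for Lct and Sis (0.193) and for Enpep and Mep1b (0.214). It was largest for Anpep and Alpi (0.855) and for Mep1a and Alpi (0.705). In Apc Eif3h replicate 3 and in Apc replicate 2 all 10 members were above the mean of their own group, whereas in Apc replicate 4 and in Apc Eif3h replicate 2 only 2 of 10 were, and in WT replicate 1 only 1. In Apc replicate 4 those above were Alpi and Treh, and Anpep and Enpep were the farthest below.

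Libraries of 1 group also differed in genes that mark position along the small intestine. Pdx1 and Onecut2 are transcription factors of the proximal small intestine, and Osr2 is a factor of its distal part. A regional score, the mean centred log2 CPM of the first pair minus that of Osr2, was set up after these data had been seen, from transcription factors of the proximal and distal lists that were not called in Apc against WT. It was -1.93, 1.96, 0.015 and 2.41 in Apc Eif3h, -0.39, -0.97, -0.67 and 2.43 in Apc and 1.16, -1.29, -2.72 and 0.015 in WT. High and low libraries occurred in every group, and the group means were 0.61 ± 1.99 in Apc Eif3h, 0.099 ± 1.57 in Apc and -0.71 ± 1.67 in WT (SD, n = 4 each). The labels give the tissue as small intestine without a segment. Wider lists of 9 proximal and 9 distal genes, many of them enterocyte genes, had 5 of 9 lower and 1 higher, and 4 of 7 tested lower and 1 higher, in Apc against WT. Between Apc Eif3h and WT 4 of 9 proximal and 4 of 7 distal genes were lower and 1 of each was higher, and 0 of either list was called between Apc Eif3h and Apc.

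Single genes of known position were named after their values were seen, and not all followed the score. Enteropeptidase (Tmprss15), the duodenal activator of trypsinogen, stood at 0.201, 77.2, 23.3 and 82.5 CPM in Apc Eif3h, at 0.891, 1.36, 3.48 and 116 CPM in Apc and at 57.9, 8.19, 0.665 and 67.6 CPM in WT. Akp3, a second intestinal alkaline phosphatase gene known from mouse duodenum, stood at 1.94, 269.5, 65.9 and 298 CPM in Apc Eif3h, at 19.1, 25.4, 20.6 and 493 CPM in Apc and at 64.4, 14.0, 3.49 and 15.6 CPM in WT. The libraries high in both were Apc Eif3h replicates 2 and 4 and Apc replicate 4, those with the 3 highest scores. Slc10a2, the ileal bile acid transporter, did not order all 12 libraries in this way. Within groups, Slc10a2 was highest in Apc Eif3h replicate 1, of the lowest score there, and lowest in Apc replicate 4, of the highest. In Apc Eif3h, however, Slc10a2 was lowest in replicate 3, whose score was 0.015. It stood at 17.1, 5.14, 2.79 and 4.91 CPM in Apc Eif3h, at 3.92, 3.87, 3.37 and 2.59 CPM in Apc and at 0.465, 0.855, 0.582 and 0.577 CPM in WT. It was low in WT replicate 3, which had the lowest score, and was higher in Apc (log2 fold change 2.43, adjusted p = 0.00658) and in Apc Eif3h (3.55, adjusted p = 0.000322) than in WT. Fabp6, a bile acid carrier of the ileum, was at or below 0.602 CPM in all 12 libraries.

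In a fit with the score beside the group, Alpi had a slope of 0.21 on the log2 scale per unit of score (SE 0.062). The slope was -0.35 for Anpep (SE 0.073), -0.32 for Mep1a (SE 0.044), -0.20 for Enpep (SE 0.050), -0.15 for Dpp4 (SE 0.039) and -0.11 for Mep1b (SE 0.038), so that all 5 peptidases were higher in libraries of low score. Lct (-0.019, SE 0.10), Sis (0.015, SE 0.085), Mgam (0.064, SE 0.052) and Treh (0.035, SE 0.066) had smaller slopes. These slopes are descriptions of 12 libraries, with the score chosen on the same libraries.

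With the score in the fit, most members kept their calls against WT. Genes of the score were chosen among those not called in Apc against WT, so this fit cannot decide on position. The part of position along the bowel in these calls was not tested. In Apc against WT 8 members were lower: Anpep was at -1.20 (adjusted p = 0.0028) and Alpi, now called, at -0.80 (adjusted p = 0.0165). In Apc Eif3h against WT 8 were lower as well, with Alpi gained at -0.85 (adjusted p = 0.0131) and Lct lost at -0.85 (adjusted p = 0.0841). In Apc Eif3h against Apc 0 were called, Dpp4 being at -0.49 (adjusted p = 0.0626). The share of all genes called in this fit is not given here, so these counts of members have no background beside them.

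**Figure D3:**
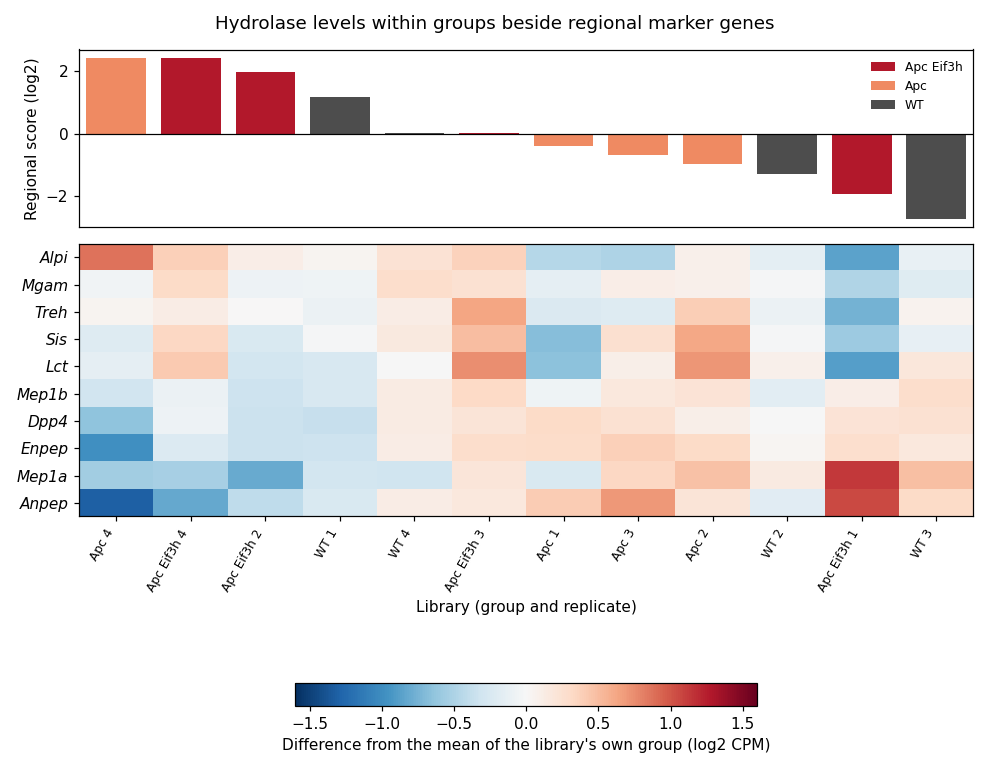
Top, regional score of each library (mean centred log2 CPM of Pdx1 and Onecut2 minus that of Osr2), ordered from high to low and coloured by group. Bottom, difference of each hydrolase from the mean of the library's own group in log2 CPM (red higher, blue lower): Alpi is highest in Apc replicate 4, where the score is 2.43, and Anpep and Mep1a are highest in Apc Eif3h replicate 1, where it is -1.93.

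Ratios within a library removed the scaling between libraries. Lct over Sis, compared on the log2 scale, averaged -0.79 ± 0.24 in Apc Eif3h and -0.47 ± 0.12 in Apc (SD, n = 4 each), a difference of -0.32 with an exact permutation p of 0.0571 (two-sided, adjusted over 9 ratio tests p = 0.513). In WT it averaged -0.67 ± 0.25. Mep1a over Mep1b on the linear scale was 0.302 in Apc Eif3h replicate 1 and between 0.0846 and 0.159 in the other 11 libraries. Alpi over Akp3 ran from 2.90 in Apc replicate 4 to 323 in WT replicate 3, and its log2 mean was 3.85 ± 2.86 in Apc Eif3h, 4.06 ± 1.68 in Apc and 6.37 ± 1.65 in WT. None of the 9 ratio tests passed an adjusted p of 0.05, and 0.0286 is the smallest exact permutation p that 4 against 4 libraries allow. A single ratio at that smallest p would not pass after adjustment over 9 tests, so these tests could hardly call a difference.

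Other apical enzymes gave counts like those of the members. Of 18 other hydrolases of the apical membrane listed, 14 were tested. In Apc against WT 9 were lower and 0 higher, with a median log2 fold change of -0.96. They included neprilysin (Mme, -1.24, adjusted p = 0.00136), neutral ceramidase (Asah2, -1.25, adjusted p = 0.00152), gamma-glutamyltransferase (Ggt1, -0.73, adjusted p = 0.00217) and the nucleotidase Nt5e (-2.16, adjusted p = 0.00237). Against the same WT libraries, Apc Eif3h also had 9 lower and 0 higher, with a median of -1.14, among them dipeptidase 1 (Dpep1, -1.25, adjusted p = 0.000253) and angiotensin-converting enzyme (Ace, -2.21, adjusted p = 0.000474). Between Apc Eif3h and Apc 0 of 14 were called, with a median of 0.05.

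Genes that build the microvillus were lower too. In Apc against WT 16 of 18 were lower and 0 higher, with a median log2 fold change of -0.74, including Baiap2l1 (-1.10, adjusted p = 0.00039), the motor Myo5b (-0.81, adjusted p = 0.00044) and the scaffold Slc9a3r1 (-1.03, adjusted p = 0.000491). The count was 17 of 18 lower and 0 higher in Apc Eif3h against WT (median -0.81), and in Apc Eif3h against Apc 0 of 18 were called (median -0.02). Transporters that take up the released products were counted from a list of 9, of which 8 were tested. In Apc against WT 6 were lower and 0 higher (median -0.81). Slc1a1 had the smallest p (-1.57, adjusted p = 0.000601). Next came the sodium-glucose carrier Slc5a1 at -1.33 (adjusted p = 0.00132), the fructose carrier Slc2a5 at -1.23 (adjusted p = 0.00231) and the peptide carrier Slc15a1 at -0.98 (adjusted p = 0.00286). For Apc Eif3h against WT 5 of 8 were lower (median -1.004), and in Apc Eif3h against Apc 0 of 8 were called (median -0.12).

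Transcription factors linked to enterocyte genes were counted over 16 genes. In Apc against WT 10 were lower and 0 higher (median -0.45), with Maf at -1.06 (adjusted p = 0.00056), Creb3l3 at -1.08 (adjusted p = 0.00158), Klf5 at -0.49 (adjusted p = 0.00196) and Hnf4g at -0.89 (adjusted p = 0.00207). Cdx1 (-0.23), Cdx2 (-0.33), Hnf4a (0.08) and Gata5 (-0.19) were among those not called, with adjusted p from 0.0605 to 0.594. Of the other GATA factors, named after their values were seen, Gata4 (-0.40, adjusted p = 0.00514) and Gata6 (-0.36, adjusted p = 0.0467) were lower in Apc against WT, and in Apc Eif3h against WT their log2 fold changes were -0.31 (adjusted p = 0.0206) and -0.35 (adjusted p = 0.0456), both lower. Against WT, Apc Eif3h had 9 of 16 lower and 0 higher (median -0.31). Between Apc Eif3h and Apc 1 of 16 was higher, the intestine-specific homeobox gene Isx, which averaged 93.7 ± 31.0 CPM in Apc Eif3h and 50.0 ± 6.38 CPM in Apc (SD, n = 4 each; log2 fold change 0.91, adjusted p = 0.0162).

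Markers of cell types moved with the groups beside the hydrolases. Of 9 absorptive enterocyte markers outside the 10 members, 8 were lower in Apc against WT (median -1.16) and 8 in Apc Eif3h against WT (median -0.91), with 0 called in Apc Eif3h against Apc (median 0.27, against -0.00 for all genes). Their summed level was 14770.0 to 25109 CPM in Apc Eif3h, 13699 to 20959.6 CPM in Apc and 28924 to 43386 CPM in WT, and none was at 0. All 8 stem and crypt progenitor markers were higher in Apc against WT (median 1.58) and in Apc Eif3h against WT (median 1.15), while 2, Lgr5 (-1.19) and Smoc2 (-0.63), were lower in Apc Eif3h against Apc. Their summed level was 1991 to 2540.3 CPM in Apc Eif3h, 2783 to 3306 CPM in Apc and 696 to 1202 CPM in WT. Of 9 pan-epithelial markers 2 were lower and 2 higher in Apc against WT (median -0.12), and 1 was lower and 3 higher in Apc Eif3h against WT (median 0.06). Scaling by the summed pan-epithelial counts left 7 hydrolases lower in Apc against WT, 8 in Apc Eif3h against WT and 0 in Apc Eif3h against Apc. Under it 14.6% of all genes were lower and 22.9% higher in Apc against WT, and 22.7% were lower and 22.2% higher in Apc Eif3h against WT.

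Some hydrolases are also made outside the epithelium, Dpp4 in T cells and Anpep in myeloid cells and fibroblasts. Of 6 T cell markers 5 were lower in Apc against WT and 5 in Apc Eif3h against WT, with a summed level of 80.9 to 246 CPM in Apc Eif3h, 83.6 to 129 CPM in Apc and 149.9 to 439 CPM in WT. Of 5 fibroblast markers 1 was lower in Apc against WT and 4 in Apc Eif3h against WT, with a summed level of 509.6 to 691 CPM in Apc Eif3h, 699.9 to 1196 CPM in Apc and 794 to 1665 CPM in WT. Of 4 macrophage markers 2 were lower in each comparison with WT, with a summed level of 96.1 to 259 CPM in Apc Eif3h, 119 to 145 CPM in Apc and 124 to 421 CPM in WT. None of the fibroblast, macrophage or T cell markers was at 0 in all libraries of a group, 0 of them were called in Apc Eif3h against Apc, and the part of these cells in the hydrolase levels was not tested.

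**Figure D4:**
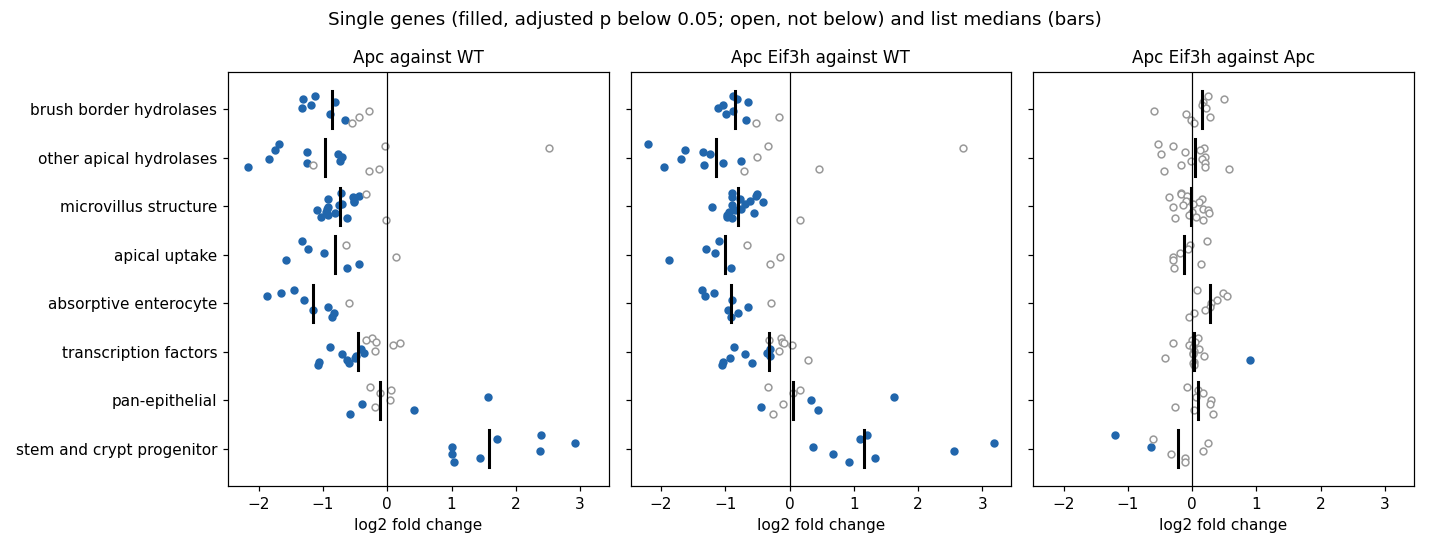
Log2 fold change (horizontal axis) of each tested gene of 8 lists (rows) in Apc against WT, Apc Eif3h against WT and Apc Eif3h against Apc; filled points had an adjusted p below 0.05 and bars mark the list medians. The hydrolases, the other apical hydrolases, the microvillus genes and the enterocyte markers lie mostly left of 0 against WT, with medians from -0.74 to -1.16, and their medians in Apc Eif3h against Apc run from -0.02 to 0.27, with 0 called.

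Of 12667 genes compared, those whose centred log2 profile over the 12 libraries was nearest to the mean profile of the 10 members were Myo1a, a brush border myosin that is also on the microvillus list (mean absolute difference 0.0494), Slc3a2, the heavy chain of several amino acid transporters (0.0679), the sphingomyelin synthase Sgms2 (0.0762), the fatty aldehyde dehydrogenase Aldh3a2 (0.0812) and Cideb, a lipid droplet protein (0.0818). Myo1a averaged 1022 ± 207 CPM in Apc Eif3h, 922 ± 145 CPM in Apc and 1739 ± 221 CPM in WT (SD, n = 4 each). For single members the nearest genes were Agmo to Lct (0.113), Dnah2 to Sis (0.159), Rom1 to Mgam (0.102), Dglucy to Treh (0.0884) and Hspa12a to Anpep (0.292). Rfk was nearest to Dpp4 (0.108), Soat2 to Enpep (0.132), Mroh7 to Mep1a (0.208), Il17rc to Mep1b (0.0701) and Prap1 to Alpi (0.140). Profiles share libraries, groups and scaling, and likeness is given as a description.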

How the data were processed

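Per the labels' protocols, RNA from mouse small intestine was column-purified, made into TruSeq libraries and sequenced from both ends, 36 cycles each. The deposited values are whole-number counts per gene, not normalized by the authors. Named without roles in the submitters' processing notes are featureCounts 1.6.4, HISAT2 2.1.0, Trim Galore 0.6.4 and FastQC 0.11.8, with the build GRCm38. Not given in the sources used here were the annotation release, strand setting and handling of reads with several mapping places, so reads shared by near-identical or antisense genes could be split or lost.

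Of 55421 identifiers 55240 matched GENCODE M21, the source of symbols and exon lengths. Counts of all 12 libraries were fitted together in edgeR 4.0.16 (R 4.3.3: filterByExpr, TMM, glmQLFit, glmQLFTest), with 1 mean per group and Benjamini-Hochberg adjustment over 17394 genes. Calls are at an adjusted p below 0.05. SE is the absolute log2 fold change over the square root of F, and 95% intervals use the fit's degrees of freedom. Levels are TMM-scaled CPM, log values use a prior count of 2, and ratios have 0.5 added to each count. The fit was tested on simulated counts. Replicate libraries of a group differed by 16.5 to 47.8 in chi-square per gene, and none was merged with another as a repeat. RefSeq promoters were searched for the letters given, on both strands. Figures used matplotlib 3.10.9.

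The members and gene lists were chosen with earlier results of these data known. Named were the 10 members, Eif3h, up to 4 genes of each list with the smallest p in a comparison, the 5 genes most like the members' mean profile among genes of mean log2 CPM of at least 1, and the nearest to each member. Factors not called, genes of short counts, B cell genes, Tmprss15, Akp3, Slc10a2 and Fabp6 were named after their values were seen. Listed Cpo and Mgam2 had no match, and Folh1, Plb1 and Cltrn did not pass the filter. Libraries with the same replicate number did not move together: correlations of their deviations were -0.14 to 0.24, over 0.1 in 3 of 12 pairs. Alternatives were other scalings (DESeq2 1.42.0 size factors, library totals, pan-epithelial counts), no filter, DESeq2, only the groups compared, sex as a term, males only, a replicate block, each library left out and, added after seeing the data, the regional score. Other marker lists examined were goblet (5 of 5 lower in Apc against WT), Paneth (0 lower, 2 higher of 5), enteroendocrine (5 of 5 lower), tuft (4 of 4 lower), B and plasma cells (1 of 4 lower), smooth muscle (3 of 5 lower), endothelium (2 of 4 lower) and haemoglobin (0 of 4 called). Some single genes of these lists are not reported here.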

Additional observations from a re-analysis of the deposited data

Results flagged for a closer look

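Of 30 sets of 4 values, 1 for each member in each group, 1 held a library far from the rest. Enpep stood at 234 CPM in Apc replicate 4 and at 566 to 602 CPM in the other Apc libraries. On the log2 scale the gap made up 0.936 of the range of the group. About 1 in 20 such sets is marked by chance. The same library had the highest regional score, 2.43, and the lowest Anpep of all 12, 594 CPM.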

How the results depend on the processing

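In Apc against WT, 7 members were lower under 8 of 10 alternatives, 8 with the regional score, 4 with males only and 6 to 8 with 1 library left out. In Apc Eif3h against Apc, 0 were lower under those 10, and 0 to 1 with a library left out. In Apc Eif3h against WT, where 8 were lower, 5 were with library totals only (without Lct, Sis and Anpep), 7 with sex as a term (without Anpep), 6 with males only (without Lct and Anpep) and 5 to 7 with a library left out. The regional score gave 8, with Alpi in place of Lct. In none was a member higher. With 1 library left out, 7832 to 9398 of all genes were called in either direction in Apc against WT, against 9012 with all libraries. In Apc Eif3h against WT 8949 to 10168 were, against 10059. Shares of all genes called lower are given only for the reported fit, library totals and pan-epithelial scaling. Of all genes, Apc Eif3h against Apc called 1226, but 203 with pan-epithelial scaling, 817 with no filter, 659 with males only and 406 to 1767 with 1 library left out, the lowest without Apc replicate 3; the cause was not tested.

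Some log2 fold changes that had not been called turned in sign, several of them to a size near or above that reported. Without Apc Eif3h replicate 1, Anpep (0.21) was -0.26 and Mep1a (0.27) -0.25 in Apc Eif3h against Apc. In Apc Eif3h against Apc, Alpi (0.03) was -0.011 with library totals, -0.028 with pan-epithelial scaling, -0.12 with males only and -0.051 with the regional score, where Enpep was 0.055 and Mep1b 0.044. With 1 library left out it ranged from -0.13 to 0.40 for Alpi, -0.019 to 0.53 for Lct, -0.073 to 0.35 for Treh, -0.26 to 0.44 for Anpep, -0.33 to 0.015 for Enpep, -0.25 to 0.50 for Mep1a and -0.11 to 0.087 for Mep1b. In Apc Eif3h against WT, Mep1a was 0.039 with library totals, 0.11 with the regional score and -0.68 to 0.065 with a library left out. Between Apc Eif3h and Apc, the log2 ratio of Alpi over Akp3 (-0.21) was 0.075 with males only and -1.54 to 0.51 with a library left out, and that of Mep1a over Mep1b (0.15) was -0.19 to 0.31. The cause of these turns was not tested.

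Replicate numbers did not pair the libraries: of 24 choices of the most similar library in another group, 5 fell on the same number. With a replicate block, 7 members were lower in Apc against WT, 8 in Apc Eif3h against WT and 0 in Apc Eif3h against Apc. The share of all genes called with the block is not given here, so these counts of members have no background beside them. Scaling by library totals moved the median over all genes, on the log2 scale, by 0.23 in Apc against WT and by 0.20 in Apc Eif3h against WT, and pan-epithelial scaling moved it by -0.10 in Apc Eif3h against Apc.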
